A study of Mus musculus with 18 samples.

Results

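Transcripts of 10 replication and proliferation genes were followed through 18 RNA sequencing libraries labelled as mouse retinal pigment epithelium (RPE), a sheet of pigmented cells that serves the photoreceptors. The genes were taken by symbol, from a choice made with earlier results of these data known: Mcm2, Mcm3, Mcm4, Mcm5, Mcm6, Cdc45, Pcna, Mki67, Top2a and Cdk1. Each had 1 row among the 21859 rows of the count table, and all 10 passed the low-count filter that left 15944 genes. The question was whether these transcripts were higher in old RPE given OSK, the transcription factors Oct4 (Pou5f1), Sox2 and Klf4, than in its control.

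The libraries fell into 4 groups: RPE of young mice (Young, 7 libraries), RPE of old mice with no vector named (Old, 4 libraries), old RPE given AAV2-tTA alone (Old control, 3 libraries) and old RPE given AAV2-tTA;TRE-OSK (Old OSK, 4 libraries). The vector AAV2 derives from an adeno-associated virus, tTA is a transactivator controlled by tetracycline and TRE the promoter that tTA drives, so the virus and the transactivator were shared by Old OSK and Old control. The labels name no promoter for tTA, and strain, exact ages, doses and times are not analysed here. No label says that the libraries of a group came from separate animals, so the p-values measure the spread between these libraries, which may be technical.

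A cell that divides first loads the MCM2-7 helicase ring onto replication origins, then activates it with Cdc45 and the GINS complex, copies its DNA behind the sliding clamp PCNA, and enters mitosis under the kinase CDK1. Ki-67 (Mki67) and topoisomerase IIα (Top2a) build up in S, G2 and M phase and are widely used to mark cycling cells. Adult mammalian RPE is known as a tissue that hardly divides, whereas stratified surface epithelia such as cornea and conjunctiva renew throughout life from basal cells.

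The promoters of 5 of these genes are shown as examples. They carry the letters of elements through which cell cycle genes are known to be switched. These elements are an E2F site, used in G1/S genes, and a CHR, used in G2/M genes. The sequences are from RefSeq (GRCm38.p6), read 5′ to 3′ on the gene's own strand and ending at the last base before the annotated gene, with E2F and CHR letters in capitals and all else in lower case.
Mcm6, chr1:128359706-128359955, minus strand: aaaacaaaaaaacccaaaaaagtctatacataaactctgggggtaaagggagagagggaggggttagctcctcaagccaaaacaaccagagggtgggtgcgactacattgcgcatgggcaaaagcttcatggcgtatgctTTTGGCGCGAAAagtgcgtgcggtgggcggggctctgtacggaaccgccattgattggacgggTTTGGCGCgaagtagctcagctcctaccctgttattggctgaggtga
Mcm5, chr8:75109259-75109467, plus strand: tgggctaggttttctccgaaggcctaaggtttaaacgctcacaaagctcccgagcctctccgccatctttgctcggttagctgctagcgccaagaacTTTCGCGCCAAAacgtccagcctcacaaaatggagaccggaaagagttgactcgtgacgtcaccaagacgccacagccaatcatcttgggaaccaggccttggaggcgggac
Mki67, chr7:135716451-135716629, minus strand: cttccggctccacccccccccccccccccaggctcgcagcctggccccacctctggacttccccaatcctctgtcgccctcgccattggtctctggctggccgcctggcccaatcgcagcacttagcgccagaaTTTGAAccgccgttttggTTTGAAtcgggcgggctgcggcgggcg
Top2a, chr11:99024200-99024439, minus strand: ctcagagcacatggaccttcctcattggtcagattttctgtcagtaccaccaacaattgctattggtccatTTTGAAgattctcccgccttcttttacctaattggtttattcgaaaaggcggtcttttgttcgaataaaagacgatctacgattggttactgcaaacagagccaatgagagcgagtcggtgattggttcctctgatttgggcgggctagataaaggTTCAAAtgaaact
Cdk1, chr10:69352913-69353162, minus strand: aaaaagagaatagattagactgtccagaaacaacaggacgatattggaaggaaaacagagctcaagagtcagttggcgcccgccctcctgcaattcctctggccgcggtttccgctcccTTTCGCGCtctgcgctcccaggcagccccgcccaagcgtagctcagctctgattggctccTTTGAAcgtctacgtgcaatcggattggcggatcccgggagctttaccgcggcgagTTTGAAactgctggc
The capitals in Mcm6 and Mcm5 mark E2F letters, those in Mki67 and Top2a mark CHR letters, and Cdk1 holds both kinds. Matches were searched on both strands in the 250 bases before the start site, and neighbouring E2F matches on opposite strands overlap in the first capital run of Mcm6 and in that of Mcm5. A promoter was found for 9 of the 10 genes, all but Mcm4. The E2F letters (TTTGGCGC, TTTCGCGC, TTTCCCGC or TTTGCCGC) were in 3 of the 9, against 1.86% of 32851 RefSeq promoters. The CHR letters (TTTGAA) were in 5 of the 9 (Mcm2, Cdc45, Mki67, Top2a and Cdk1), against 16% of promoters. CCAAT, a box bound by NF-Y and frequent in G2/M promoters, was in 9 of 9, against 33.8%. These letters are a description of the windows and no measure of binding.

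Library totals ran from 18104828 to 32348136 counts. The vector gene Pou5f1 followed the labels, at 50.1 to 97.4 CPM (read counts scaled to a common library size, after TMM) in Old OSK and at 0.338 to 1.06 CPM in Old control. Sox2 was at 70 to 115.4 CPM in Old OSK and at 2.799 to 15.9 CPM in Old control. Klf4 was at 155 to 431.6 CPM in Old OSK and at 24.17 to 33.61 CPM in Old control. In Old replicate 4, with no vector named, Klf4 was at 216 CPM, above Old OSK replicate 4 (155 CPM). RPE markers were present in every library, with a summed level of 10 markers of 39451 to 65572 CPM in Young, 27017 to 47469 CPM in Old, 20309 to 62729 CPM in Old control and 15288 to 29924 CPM in Old OSK. In bulk RNA, fewer RPE cells and less RPE RNA per cell cannot be told apart. Keratin transcripts of surface epithelium were also present in all 18 libraries, at levels given beside the results below. The library names of 6 libraries carry an unexplained letter M (Old OSK replicate 4, replicates 2 and 3 of Old control, and Young replicates 5 to 7), and these 6 had 4040 to 5493 counts on 4 Y-linked genes, against 0 to 93 in the other 12.

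In Old OSK, 9 of the 10 genes had a positive log2 fold change over Old control (47.1% of all genes tested), and none passed the test over all genes tested (edgeR adjusted p under 0.05). The largest differences were in the cycling markers Mki67 (2.83-fold) and Top2a (2.61-fold) and in the helicase subunit Mcm6 (2.6-fold). Mcm4, Cdc45, Pcna and Cdk1 differed by 1.25-fold or less. Over all genes, 0.728% were called in this comparison (65 higher and 51 lower of 15944, or 64 higher and 29 lower with median-ratio scaling in place of TMM). At an unadjusted p under 0.05, 7 of the 10 were higher and 0 lower, against 13.3% and 13% of all genes. DESeq2, a second count test, called 4 (Mcm2, Mcm3, Mcm6 and Mki67), and 10.1% of all genes. At an edgeR adjusted p under 0.1, 3 were higher (Mcm2, Mcm3 and Mcm6), against 4.42% of all genes. The median log2 fold change of the 10 genes was 0.70, against -0.03 over all genes tested.

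**Figure D1:**
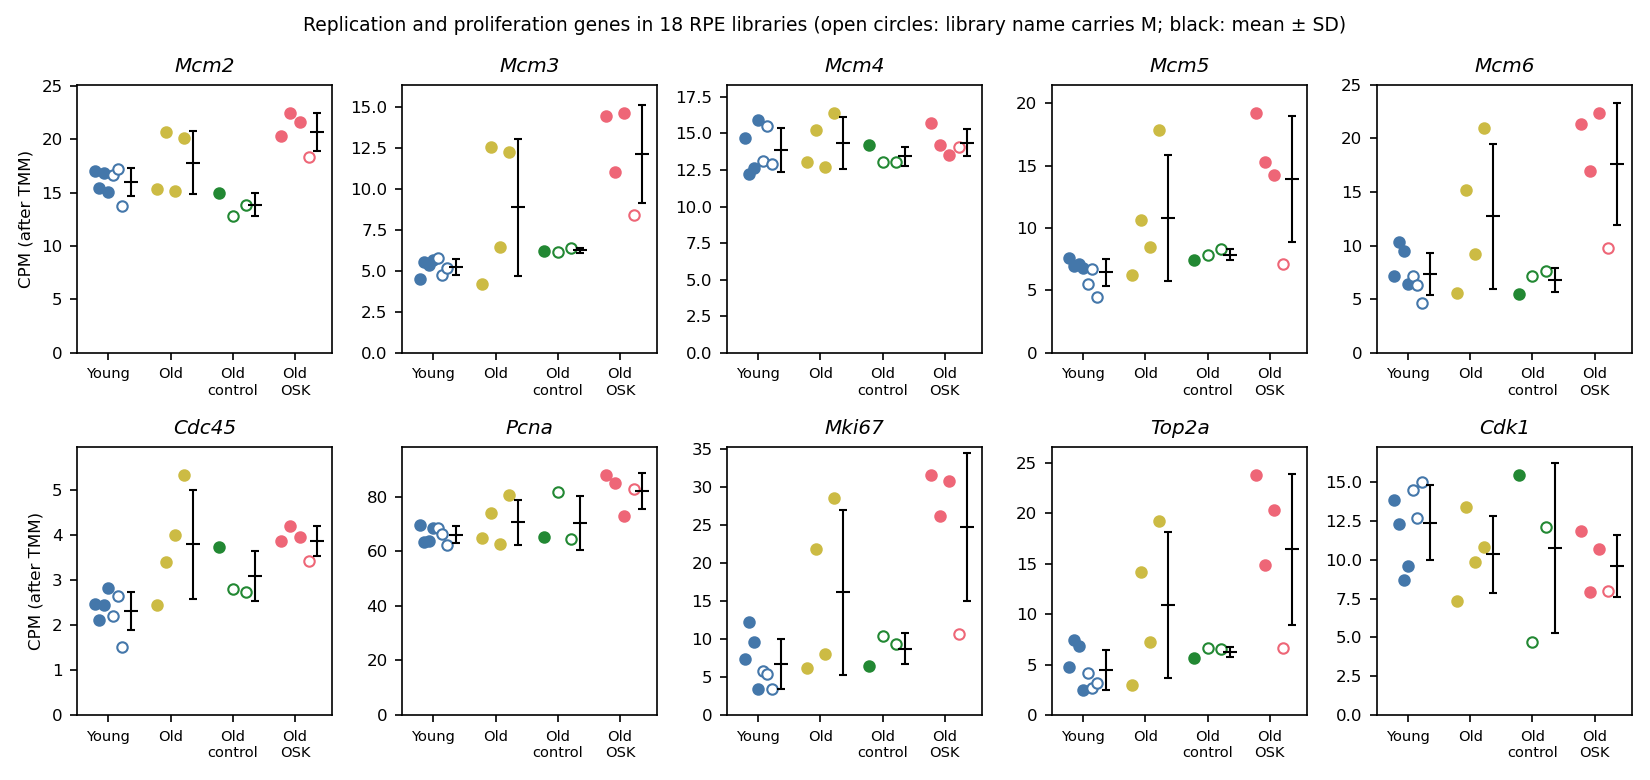
Level of each gene (CPM after TMM, vertical axis from 0) in each library, by group, with the group's mean and SD in black and open circles for libraries with M in their name. In the panels of Mki67, Top2a, Mcm5 and Mcm6, Old OSK replicate 4 lies far below the other 3 Old OSK libraries, and Old replicates 2 and 4 lie far above Old replicate 1.

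Mki67 encodes the Ki-67 protein of cycling cells. In Old control replicates 1, 2 and 3 it stood at 6.45, 10.4 and 9.40 CPM, and in Old OSK replicates 1 to 4 at 31.5, 26.2, 30.7 and 10.6 CPM. All 4 Old OSK libraries were above all 3 Old control libraries, although Old OSK replicate 4 was only just above the highest of them. This made a log2 fold change of 1.5 (SE 0.55, adjusted p = 0.114). With the replicate numbers as a block, in the 6 libraries that share a number, Mki67 passed the test (1.77, SE 0.23, adjusted p = 0.0468), as did Mcm6 and Top2a and 3.02% of all genes. That fit leaves out Old OSK replicate 4, and the same 6 libraries without the block also gave a call (1.75, adjusted p = 0.0236). In these 6 libraries Old control replicates 2 and 3 carry the letter M and no Old OSK library does.

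Untreated old RPE spread just as widely. Mki67 was at 6.13, 21.9, 7.97 and 28.6 CPM in Old replicates 1 to 4, so 2 of the 4 Old libraries were near the Old OSK levels and the other 2 were near those of Old control. In the 7 Young libraries it ran from 3.37 to 12.3 CPM (median 5.79), below both high Old libraries.

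Top2a encodes the topoisomerase that untangles sister chromatids. Its levels were 5.68, 6.63 and 6.51 CPM in Old control and 23.8, 14.9, 20.4 and 6.67 CPM in Old OSK. Old OSK replicate 4 was practically level with Old control, and the other 3 libraries were well above it. Its log2 fold change was 1.39 (SE 0.55, adjusted p = 0.132), and 1.62 (SE 0.24, adjusted p = 0.0471) with the block. In Old it stood at 2.97, 14.2, 7.25 and 19.2 CPM, which again put replicates 2 and 4 among the Old OSK levels. Young libraries had 2.46 to 7.45 CPM (median 4.17).

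Cdk1, the kinase that starts mitosis, did not share this pattern. It was at 15.4, 4.74 and 12.1 CPM in Old control and at 11.9, 7.90, 10.7 and 7.97 CPM in Old OSK. The Old OSK libraries lay within the range of Old control, whose replicate 2 was the lowest of all 18 libraries. Old OSK differed from Old control by -0.16 on the log2 scale (SE 0.31, adjusted p = 0.804). The sign turned with the block (0.05) and without Old control replicate 1 (0.19). Old libraries had 7.33, 13.4, 9.86 and 10.8 CPM, and Young libraries 8.68 to 15.02 CPM (median 12.7), so the groups overlapped throughout.

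The helicase subunits Mcm2 to Mcm6 did not move alike. Mcm6 had the widest gap, with 5.51, 7.17 and 7.62 CPM in Old control and 21.4, 16.9, 22.3 and 9.80 CPM in Old OSK. All 4 Old OSK libraries were above Old control, replicate 4 by the smallest margin. Its log2 fold change was 1.38 (SE 0.39, adjusted p = 0.0758), and 1.58 (SE 0.21, adjusted p = 0.0468) with the block. Old libraries were at 5.56, 15.2, 9.23 and 20.9 CPM and Young libraries at 4.67 to 10.3 CPM (median 7.12), so that Old replicates 2 and 4 exceeded every Young library.

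Mcm3 was at 6.23, 6.12 and 6.39 CPM in Old control and at 14.5, 11.1, 14.6 and 8.40 CPM in Old OSK, with no overlap. Its log2 fold change was 0.96 (SE 0.30, adjusted p = 0.0875). In Old it was at 4.21, 12.5, 6.46 and 12.2 CPM, with the same 2 high libraries, and in Young at 4.50 to 5.79 CPM (median 5.34). Mcm5 was at 7.42, 7.85 and 8.33 CPM in Old control and at 19.2, 15.3, 14.3 and 7.10 CPM in Old OSK. Old OSK replicate 4 was below all 3 Old control libraries, and the other 3 were above them. For Mcm5 the log2 fold change was 0.83 (SE 0.33, adjusted p = 0.133).

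Mcm2 showed a smaller but tighter difference. It was at 15.01, 12.8 and 13.8 CPM in Old control and at 20.3, 22.4, 21.6 and 18.4 CPM in Old OSK. Here replicate 4 stood close to the other Old OSK libraries and clear of Old control. Its log2 fold change of 0.57 (SE 0.13) had the lowest adjusted p of the 10 genes (0.0523), and Mcm2 passed in DESeq2 (0.58, adjusted p = 0.00212). Old libraries had 15.3, 20.7, 15.2 and 20.1 CPM and Young libraries 13.8 to 17.2 CPM (median 16.7). Mcm2 in Old replicates 2 and 4 was therefore as high as in Old OSK.

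Mcm4 differed little between groups. It was at 14.2, 13.0 and 13.1 CPM in Old control, at 15.7, 14.2, 13.5 and 14.1 CPM in Old OSK and at 13.0, 15.3, 12.7 and 16.4 CPM in Old. Young libraries ran from 12.2 to 15.9 CPM (median 13.1), and no group stood apart. Old OSK differed from Old control by 0.10 on the log2 scale (SE 0.13, adjusted p = 0.683).

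Compared per kilobase of exon, the subunits of the ring were uneven in Young, where Mcm2 and Mcm4 stood at 4.75 ± 0.38 and 3.86 ± 0.415 CPM per kb (SD, n = 7). Mcm3, Mcm5 and Mcm6 stood lower, at 1.73 ± 0.158, 1.87 ± 0.312 and 1.68 ± 0.446 CPM per kb. In Old OSK (n = 4) the last 3 were at 4.01 ± 0.983, 4.04 ± 1.46 and 4.02 ± 1.31 CPM per kb and Mcm4 at 4 ± 0.264 CPM per kb. Mcm2 stood apart from these 4 in Old OSK, at 6.14 ± 0.525 CPM per kb. In Old (n = 4), Mcm3, Mcm5 and Mcm6 were at 2.93 ± 1.38, 3.13 ± 1.46 and 2.91 ± 1.54 CPM per kb, between their Young and Old OSK means. In Old control (n = 3) these genes were nearer to Young, at 2.06 ± 0.0442, 2.28 ± 0.132 and 1.55 ± 0.254 CPM per kb. Mcm2 and Mcm4 were at 4.12 ± 0.32 and 3.74 ± 0.188 CPM per kb there. These differences in level per length were not tested. Pcna had by far the highest level per length, 43.6 ± 1.96 CPM per kb in Young, and Mki67 the lowest, 0.671 ± 0.326 CPM per kb.

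Cdc45, which joins the ring to form the active helicase, had the fewest reads of the 10 genes, with at least 27 counts in every library. It was at 3.73, 2.81 and 2.74 CPM in Old control and at 3.87, 4.20, 3.96 and 3.41 CPM in Old OSK, and these ranges overlapped through Old control replicate 1. The log2 fold change was 0.32 (SE 0.26, adjusted p = 0.465). Cdc45 shares 52 exon bases with Ufd1 on the opposite strand, and the strand setting of the counting is not given in the sources used here. In the GENCODE M21 annotation the exons of the other 9 genes overlap no other gene.

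Pcna, the sliding clamp, was the most abundant of the 10 transcripts. It stood at 65.2, 81.8 and 64.5 CPM in Old control and at 87.8, 85.1, 72.8 and 82.9 CPM in Old OSK. Old control replicate 2 was above Old OSK replicate 3, so the groups overlapped. The log2 fold change was 0.22 (SE 0.10, adjusted p = 0.186), and it passed without Old control replicate 2 (0.31, adjusted p = 0.0425). Young libraries (62.3 to 69.7 CPM, median 66.5) and Old libraries (64.9, 74.2, 62.6 and 80.7 CPM) covered the same levels as Old control.

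In all, 5 of the 10 genes (Mcm2, Mcm3, Mcm6, Mki67 and Top2a) had every Old OSK library above every Old control library, as had 6.55% of all genes tested. Old OSK replicate 4 was the lowest of its group in 7 of the 10 genes, and it is the only Old OSK library with M. Among libraries with M, Mki67 was at 10.6 CPM in Old OSK against 10.4 and 9.40 CPM in Old control. Among libraries without M it was at 31.5, 26.2 and 30.7 CPM against 6.45 CPM. Adding M to the model gave a log2 fold change of 1.07 for Mki67 (adjusted p = 0.342), 0.96 for Top2a (adjusted p = 0.382), 1.13 for Mcm6 (adjusted p = 0.192) and 0.53 for Mcm2 (adjusted p = 0.123).

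The difference between the effect of OSK with and without M was itself tested after the values had been seen. It was -2.09 for Mki67 on the log2 scale (unadjusted p = 0.0838, adjusted p = 0.515) and -0.05 for Mcm2 (adjusted p = 0.968). None of the 10 passed that test, adjusted or not, in which Old OSK with M and Old control without M are each represented by 1 library. Without Old OSK replicate 4, 4 of the 10 genes passed (Mcm2, Mcm3, Mcm5 and Mcm6), with 11% of all genes called. Without Old control replicate 2, the library lowest in Cdk1, 3 passed (Mcm2, Mcm6 and Pcna), with 17.9% of all genes called.

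**Figure D2:**
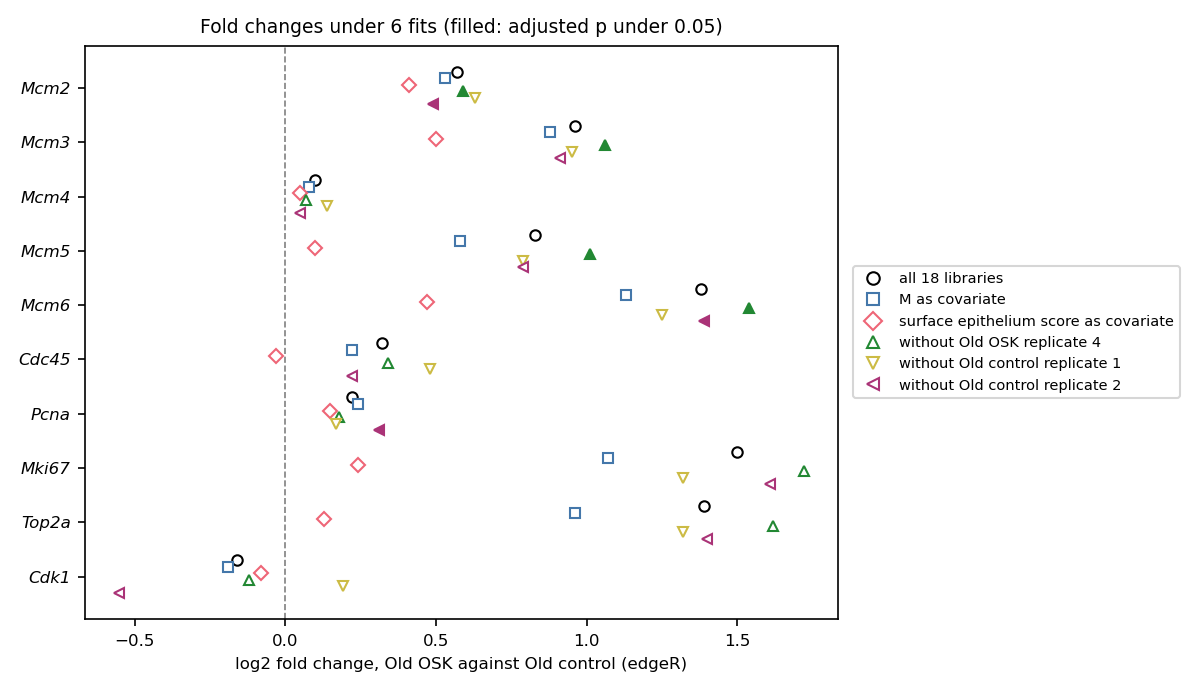
Log2 fold change of each gene in Old OSK against Old control (horizontal axis) in the fit of all 18 libraries and in 5 others, with filled symbols where the adjusted p was under 0.05. The values of Mki67, Top2a, Mcm5 and Mcm6 with the surface epithelium score as a covariate (0.24, 0.13, 0.10 and 0.47) lie far to the left of the others, while Mcm4 stays near 0 in every fit shown.

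Transcripts of surface epithelium moved with these genes. The same 5 libraries (Old OSK replicates 1, 2 and 3 and Old replicates 2 and 4) were the highest of the 18 for Mki67, Top2a, Mcm2, Mcm3, Mcm5 and Mcm6, a pattern noticed after the values were seen and shared by 5.67% of all genes tested. They were not the highest 5 for Mcm4, Cdc45, Pcna or Cdk1. A list of 11 surface epithelium genes was then drawn up with this in view: keratins of basal and corneal epithelium (Krt5, Krt14, Krt15, Krt12, Krt6a, Krt17), the basal cell factor Trp63, the hemidesmosome collagen Col17a1, the adhesion molecules Cdh1 and Epcam, and Aldh3a1, an abundant corneal enzyme. An earlier list of 6 ciliary body, lens and cornea markers held Krt5, Krt12 and Aldh3a1 beside the crystallins Cryaa, Cryba1 and Crygs. Of these 6, only 3 (Krt5, Krt12 and Aldh3a1) had positive log2 fold changes in Old OSK against Old control (median 1.09) and in Old against Young (median -0.81). The crystallins, which went the other way, are not in the list of 11. The same 5 libraries were highest for 9 of the 11 surface epithelium genes and for their sum. Because the 11 were picked with these libraries in view, this match is no independent test.

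The summed level of the 11 genes was 28141, 20320, 19260 and 3775 CPM in Old OSK replicates 1 to 4, and 1208, 4615 and 2703 CPM in Old control. It was 925, 8133, 5465 and 20553 CPM in Old, and 167 to 5333 CPM in Young (median 1042). Old OSK replicate 4, the low library for Mki67 and Top2a, was thus within the Old control range, and Old replicate 4 was within the range of the other Old OSK libraries. All 11 genes had counts in every library. Krt5 alone was at 1252 to 8581 CPM in Old OSK and 389 to 1473 CPM in Old control, and Krt12, a keratin of corneal epithelium, at 74.5 to 3096 CPM and 38.4 to 63.3 CPM. Their log2 fold changes in Old OSK against Old control ran from 2.03 (Trp63) to 4.90 (Krt12), with adjusted p between 0.105 and 0.192.

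**Figure D3:**
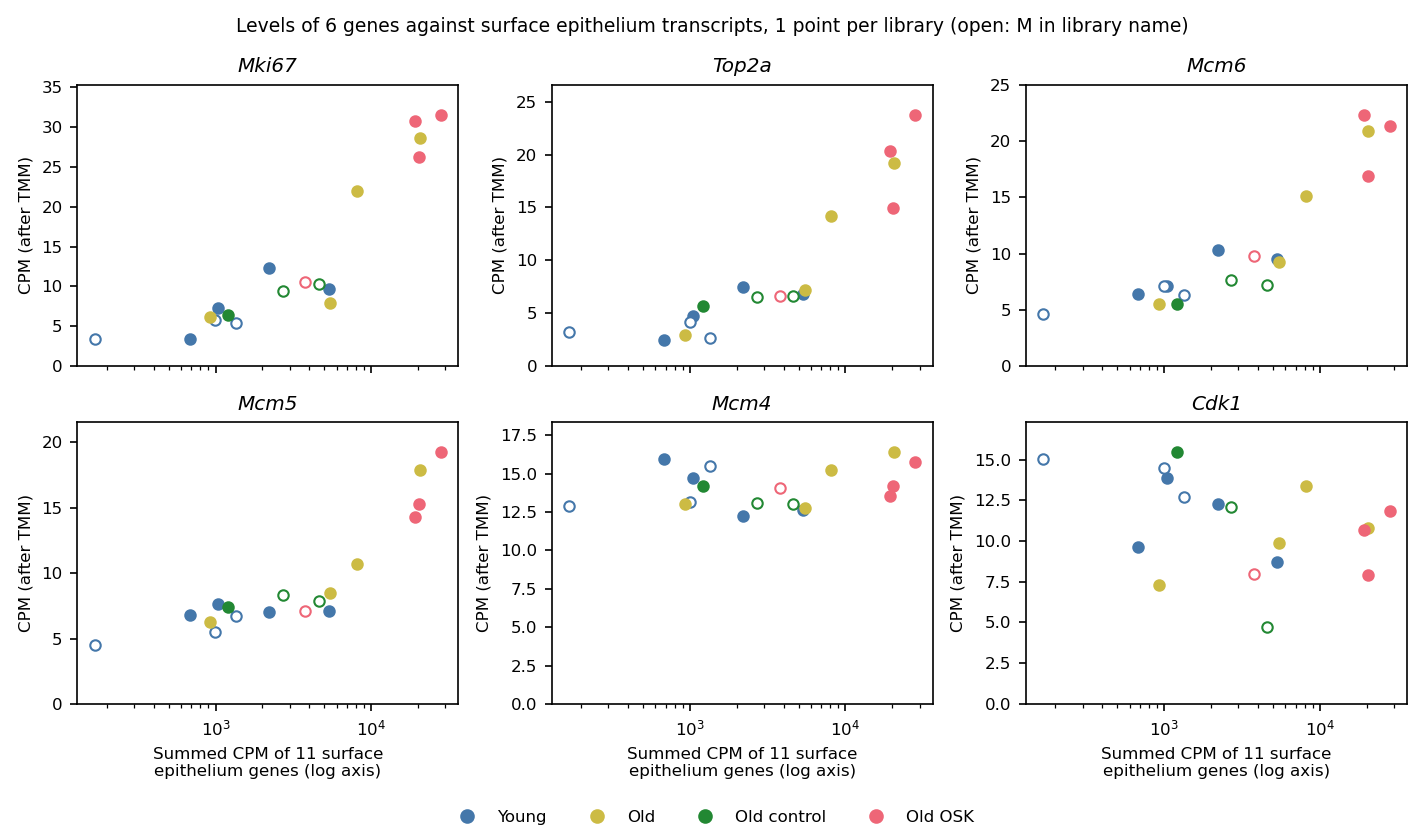
Level of 6 of the genes (CPM after TMM, vertical axis) against the summed CPM of 11 surface epithelium genes (log axis), with 1 point per library coloured by group. Mki67, Top2a, Mcm6 and Mcm5 are high in the 5 libraries with a sum of 8133 CPM or more, while Mcm4 and Cdk1 show no such step. These 5 are Old OSK and Old libraries, and no Young or Old control library reaches that sum. The 11 genes were picked with these libraries in view.

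The mean log2 CPM of these 11 genes was added to the model as a score, a choice made after the values had been seen. The 11 genes had been picked with the highest libraries of Mki67 in view. A smaller difference or a steep slope with the score, in genes high in those libraries, is therefore no independent test. With it, the log2 fold change in Old OSK against Old control was 0.24 for Mki67 (SE 0.34, adjusted p = 0.938), 0.13 for Top2a (SE 0.38, adjusted p = 0.976), 0.10 for Mcm5 (SE 0.24, adjusted p = 0.975) and 0.47 for Mcm6 (SE 0.22, adjusted p = 0.714). Mcm2 kept most of its difference (0.41, SE 0.14, unadjusted p = 0.00821, adjusted p = 0.561), and Mcm3 stood at 0.50 (SE 0.29, adjusted p = 0.771). The median of the 10 genes was 0.14, against -0.05 over all genes. Per unit of the score, Mki67 was higher by 0.46 and Top2a by 0.44 on the log2 scale, Mcm6 by 0.33 and Mcm5 by 0.26, against a median of 0.01 over all genes tested. The corresponding values were 0.02 for Mcm4, 0.03 for Pcna and -0.03 for Cdk1. The score is itself higher in 3 of the 4 Old OSK libraries than in any Old control library, so in these libraries the score and the treatment can be separated only in part.

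Markers of other cell types were summed in the same way. The 12 macrophage and microglia markers summed to 855 to 1061 CPM in Old OSK and 941 to 1173 CPM in Old control, with overlap. The 9 lymphocyte and neutrophil markers were scarce but did not overlap, at 6.57 to 8.71 CPM in Old OSK and 4.6 to 6.19 CPM in Old control, and at 6.23 to 15.1 CPM in Old. The 8 endothelial markers summed to 62 to 309 CPM in Old OSK and 183 to 211 CPM in Old control. Rod and cone transcripts were highest in Old control replicate 2 (16870 CPM) and Old OSK replicate 4 (14539 CPM). Their part in the levels of the 10 genes was not tested.

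**Figure D4:**
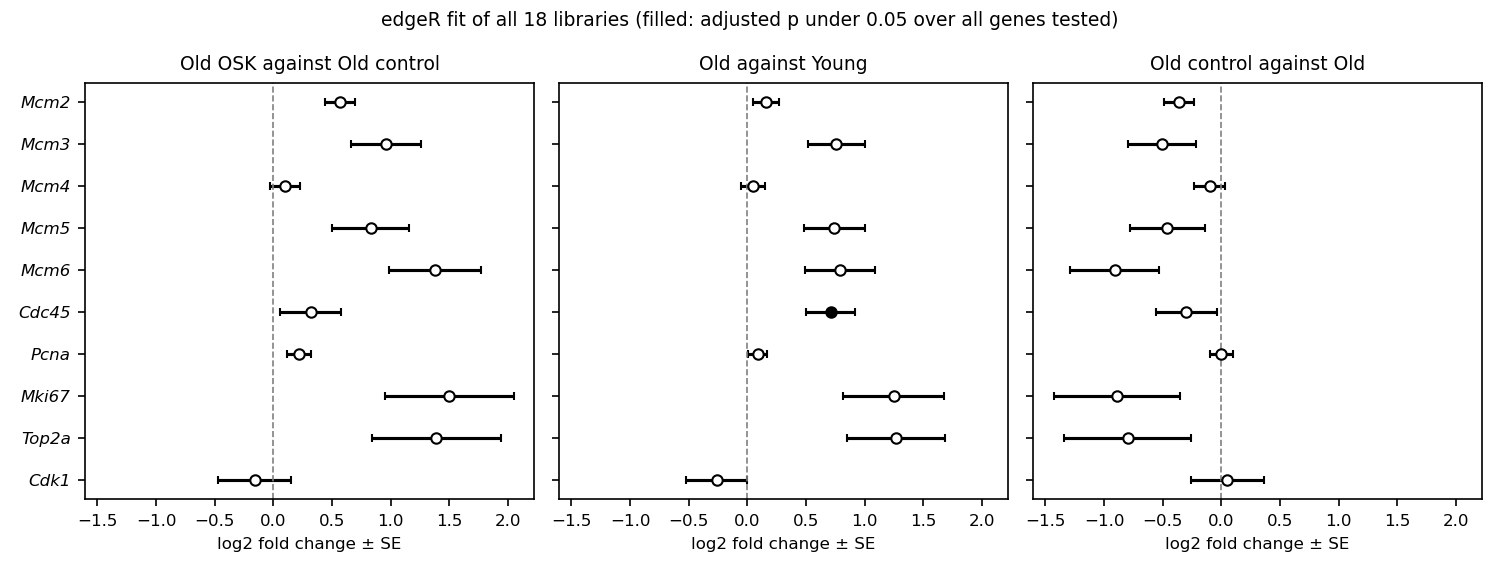
Log2 fold change and SE of each gene in the 3 comparisons of the edgeR fit of all 18 libraries, filled where the adjusted p was under 0.05. Cdc45 in Old against Young is the only filled point, and 9 of the 10 genes are positive in Old OSK against Old control and in Old against Young.

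The comparison of Old with Young asked how these transcripts differed with age in RPE without a vector. Of the 10 genes, Cdc45 alone was called, against 9.56% of all genes (5.4% called higher). Cdc45 was at 2.44, 3.40, 4.003 and 5.32 CPM in Old and at 1.52 to 2.81 CPM in Young (median 2.45). Old replicate 1 was among the Young libraries, and the other 3 were above all of them. The log2 fold change was 0.71 (SE 0.21, adjusted p = 0.0407). Leaving out each library in turn, the call was lost in 8 of 11 fits, with the highest adjusted p without Old replicate 4 (0.50, adjusted p = 0.228), as it was with M as a covariate (0.60, adjusted p = 0.111), with the surface epithelium score (0.36, adjusted p = 0.456) and with the replicate numbers as a block (0.58, adjusted p = 0.354).

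Mki67 and Top2a had log2 fold changes of 1.25 (SE 0.43, adjusted p = 0.0672) and 1.27 (SE 0.42, adjusted p = 0.0634) in Old against Young, and Mcm3, Mcm5 and Mcm6 of 0.76, 0.74 and 0.79 (adjusted p = 0.0522, 0.0745 and 0.0963). None passed, and in each of them Old replicate 1 was inside or below the Young range. Without Old replicate 1, 6 of the 10 genes passed, with 13.4% of all genes called. Mcm2 (0.16), Mcm4 (0.05), Pcna (0.09) and Cdk1 (-0.26) had adjusted p between 0.351 and 0.783. None of the 10 had every Old library above every Young library, against 3.69% of all genes. Of the 10, 9 had a positive log2 fold change (49.3% of all genes). Their median was 0.73, and with the surface epithelium score in the model it was 0.03. The genes of the score were picked with the highest libraries of Mki67 in view, some of them Old, so this is no independent test. Of the 11 surface epithelium genes, 5 were called higher in Old (Krt14, Krt17, Col17a1, Epcam and Aldh3a1). Of 12 macrophage and microglia markers, 10 were called higher (median 1.96), with sums of 764 to 1273 CPM in Old and 504 to 691 CPM in Young and no overlap. All 10 rod and cone markers had positive log2 fold changes (median 1.33, none called), with sums of 1916 to 6852 CPM and 178 to 2772 CPM. The part of these cell types in the levels of the 10 genes was not tested.

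Old control against Old asked how libraries given the vector without OSK differed from those with no vector named. The letter M is in 2 of the 3 Old control libraries and in 0 of the 4 Old libraries. The vector and M can therefore be separated here only through Old control replicate 1. No gene of the 15944 passed in edgeR (0%; 3.74% at an unadjusted p under 0.05) or in DESeq2, and none of the 10 did. The log2 fold changes ran from -0.91 for Mcm6 (unadjusted p = 0.0292, adjusted p = 0.9) to 0.05 for Cdk1, with a median of -0.41, and 2 of the 10 (Mcm2 and Mcm6) were lower at an unadjusted p under 0.05, against 1.34% of all genes. Mcm2 was lower in all 3 Old control libraries (12.8 to 15.01 CPM) than in all 4 Old libraries (15.2 to 20.7 CPM), as were 0.928% of all genes, with a log2 fold change of -0.36 (SE 0.13, unadjusted p = 0.0137, adjusted p = 0.9). This comparison and that of Old OSK share the 3 Old control libraries. Compared side by side, Mcm2 averaged 16.0 CPM in Young, 17.8 CPM in Old, 13.9 CPM in Old control and 20.7 CPM in Old OSK.

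Other genes of the cell cycle were read from 5 lists. Of 40 mitosis genes, 38 had a positive log2 fold change in Old OSK against Old control, with a median of 1.18 against 0.70 for the 10 genes above. None was called by edgeR and 6 by DESeq2, against 0.728% and 10.1% of all genes. At an unadjusted p under 0.05, 24 were higher and 1 lower (13.3% and 13% of all genes), and 28 shared the 5 highest libraries of Mki67 (5.67% of all genes). Hmmr, a spindle protein, was at 1.30 to 5.97 CPM in Old OSK and 0.636 to 1.31 CPM in Old control (2.01, SE 0.61, adjusted p = 0.085). Cdc20, an activator of the anaphase-promoting complex, was at 6.30 to 15.5 CPM and 4.09 to 7.94 CPM (1.07, SE 0.34, adjusted p = 0.0895). With the surface epithelium score the median of the 40 genes was 0.08, again no independent test, since the score was built with the highest libraries of Mki67 in view.

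Of 42 origin licensing and replication fork genes, none was called by edgeR and 4 by DESeq2, the latter near the 10.1% of all genes. At an unadjusted p under 0.05, 9 were higher and 1 lower (13.3% and 13% of all genes), and their median was 0.36. Rfc3, a subunit of the clamp loader that places PCNA on DNA, was at 9.83 to 13.6 CPM in Old OSK and 5.09 to 8.18 CPM in Old control (0.85, SE 0.21, adjusted p = 0.0631). Rpa1, the large subunit of the single-strand binding protein, was lower, at 103 to 127 CPM against 135 to 179 CPM (-0.43, SE 0.13, adjusted p = 0.088). Mcm7, the remaining subunit of the helicase ring and named after its values were seen, was at 18.6 to 26.1 CPM against 13.9 to 17.7 CPM (0.54, SE 0.17, adjusted p = 0.0907), and it shares 385 exon bases with Cops6 and Ap4m1 on the opposite strand.

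Of 11 genes that supply nucleotides for S phase, none was called by edgeR and 3 by DESeq2 (10.1% of all genes). At an unadjusted p under 0.05, 4 were higher and 1 lower (13.3% and 13% of all genes), with a median of 0.36. Thymidine kinase Tk1 was at 3.72 to 11.1 CPM in Old OSK and 2.04 to 3.58 CPM in Old control (1.57, SE 0.46, adjusted p = 0.0818), with no overlap (6.55% of all genes were higher without overlap). The ribonucleotide reductase subunit Rrm2 was at 2.33 to 9.92 CPM against 1.44 to 2.27 CPM (1.83, SE 0.60, adjusted p = 0.094). Both are S phase enzymes, and in both the lowest Old OSK library was barely above Old control.

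Of 21 G1 to S cyclins, kinases and E2F genes, none was called by edgeR in Old OSK against Old control and 3 by DESeq2, the latter near the 10.1% of all genes. At an unadjusted p under 0.05, 6 were higher and 5 lower (13.3% and 13% of all genes). First by p were E2f3 (8.94 to 14.8 CPM against 15.8 to 23.7 CPM; -0.76, SE 0.22, adjusted p = 0.0768) and E2f5 (10.6 to 12.3 CPM against 14.5 to 19.5 CPM; -0.50, SE 0.15, adjusted p = 0.0796), E2F family members that were lower in every Old OSK library. Of 10 CDK inhibitors and RB family genes, none was called by edgeR and 2 by DESeq2 (10.1% of all genes). At an unadjusted p under 0.05, 5 were higher and 1 lower (13.3% and 13% of all genes). Cdkn1a, which encodes the CDK inhibitor p21, was at 64.9 to 127 CPM in Old OSK and 18.9 to 36.7 CPM in Old control (2.02, SE 0.57, adjusted p = 0.076). Cdkn2a, which encodes p16 and p19ARF, was at 0.403 to 2.08 CPM and 0.0424 to 0.338 CPM (2.98, SE 1.07, adjusted p = 0.11). Neither gene overlapped between Old OSK and Old control, where 6.55% of all genes were higher without overlap and 5.84% lower, as E2f3 and E2f5 were. Cdkn2a had only 1 to 10 counts in the Old control libraries.

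With age, 7 genes of these lists were called, against 9.56% of all genes. No call was among the 42 origin licensing and replication fork genes or the 11 nucleotide supply genes. Of the 21 G1 to S genes, 1 was called higher and 2 lower, and of the 10 CDK inhibitors and RB family genes 1 was called higher. Cenpf, a kinetochore protein, rose by 1.81 (adjusted p = 0.0311), Kif23, a kinesin of cytokinesis, by 1.74 (adjusted p = 0.0497) and Bub1b, a spindle checkpoint kinase, by 0.59 (adjusted p = 0.0477) on the log2 scale, which made 3 of 40 mitosis genes, against 5.4% of all genes called higher. Myc rose by 2.00 (adjusted p = 0.0333) and Cdkn1a by 1.56 (adjusted p = 0.0355), with overlapping groups. Cdk2, the kinase of S phase entry, was lower in every Old library (14.9 to 23.5 CPM) than in every Young library (32.5 to 49.9 CPM) and fell by 0.95 (SE 0.17, adjusted p = 0.00438). Ccnd3, a D-type cyclin, fell by 0.50 (adjusted p = 0.039), also without overlap, and 5.61% of all genes were lower in Old without overlap. With the surface epithelium score in the model, Cdk2 alone of these 7 genes remained called (-1.21, adjusted p = 0.00198). That score was built after the values had been seen, so the loss of the other calls is no independent test.

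**Figure D5:**
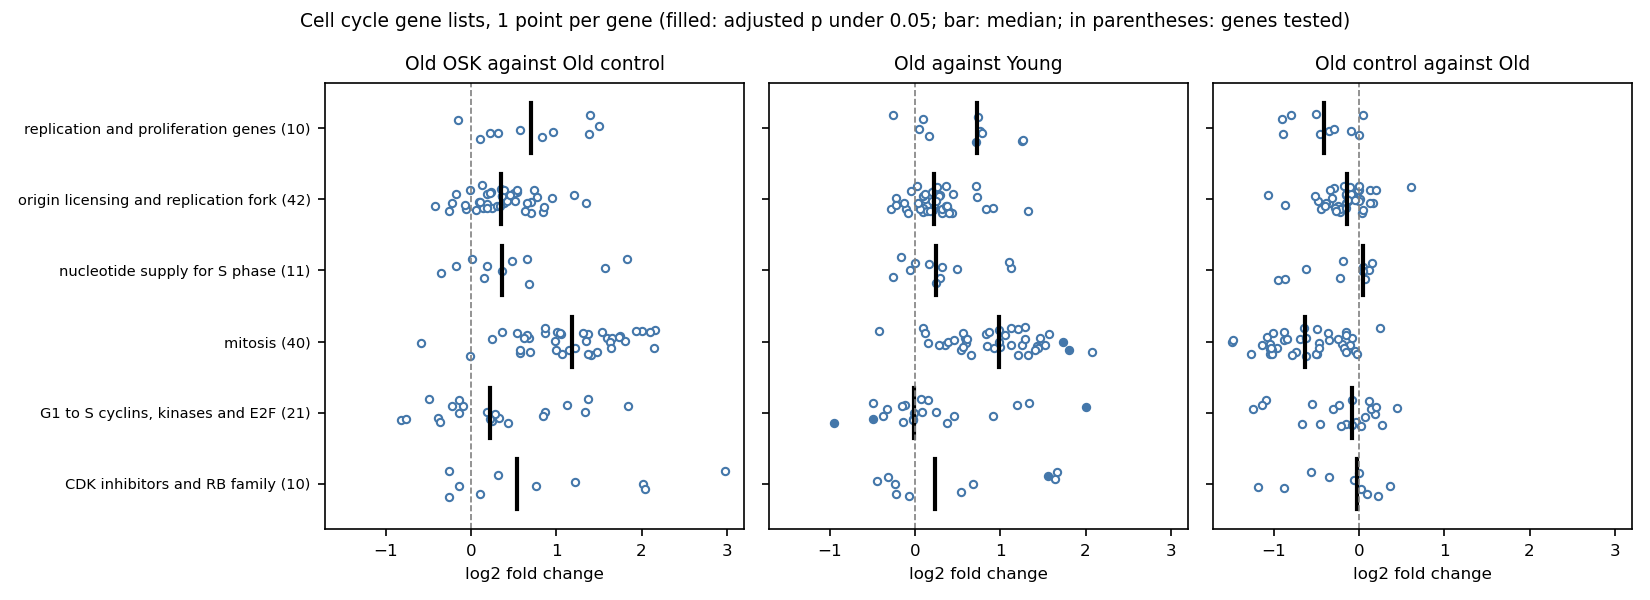
Log2 fold change of every tested gene of the 10 and of the 5 lists in the 3 comparisons, with 1 point per gene, filled where the adjusted p was under 0.05, and a bar at the median. The mitosis list has the highest median in Old OSK against Old control (1.18) and in Old against Young (0.99) and the lowest in Old control against Old (-0.64).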

How the data were processed

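The values used are raw counts per gene in 1 table deposited by the authors, from 18 libraries of polyA RNA amplified with a SMART-Seq kit and made into Nextera XT libraries, per the labels' protocols. The submitters' processing notes name STAR 2.7.1a, featureCounts 1.6.2 and mouse and human genome builds with no role. Strand setting and annotation are not given in the sources used here. Without molecular identifiers, counting error understates the error of a value.

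Counts were filtered with filterByExpr (minimum count 10, minimum total 15), scaled by TMM and fitted in edgeR 4.0.16 (R 4.3.3) by quasi-likelihood with 4 group means over all 18 libraries. P-values were adjusted by Benjamini-Hochberg over all 15944 genes, and a gene was called at an adjusted p under 0.05. CPM are library-scaled counts after TMM. Scripts were tested on simulated data.

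The 10 genes and the 5 cell cycle lists were chosen with earlier results of these data known. Genes named from a list are the 3 with the lowest p called in a comparison, or the 2 with the lowest p in Old OSK against Old control where none was called. No replicate pair agreed within sampling noise (the lowest chi-square per gene was 19.1). Old OSK and Old control libraries with the same number deviated from their group means together across genes (r = 0.103, 0.421 and 0.339), so the numbers were treated as possible pairs there. No label states a pairing, and r between libraries of different numbers was not computed for reference. Numbers 2 and 3 join an Old control library with M to an Old OSK library without it. Alternatives were median-ratio scaling, no filter, a mean of at least 50 counts, DESeq2 1.42.0, the 2 groups alone, M as a covariate, the replicate block and each library left out. The surface epithelium score (mean log2 CPM of 11 genes) and the test of OSK with M were added after the data had been seen.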

Additional observations from a re-analysis of the deposited data

How the results depend on the processing

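In Old OSK against Old control, where 0 were called, 1 was called with a mean of at least 50 counts, 4 by DESeq2 and 0 to 4 when each library was left out, the 4 without Old OSK replicate 4. All genes called numbered 116, against 58 with M as a covariate, 27 with the surface epithelium score, 1603 by DESeq2, 2 with the 2 groups alone, and 13 (without Old control replicate 1) to 2881 (without Old control replicate 2) when each library was left out. In Old against Young, where 1 was called (Cdc45), 0 were called with no filter, with M, with the surface epithelium score and with the 2 groups alone, 2 with a mean of at least 50 counts, 5 by DESeq2 and 0 to 6 when each library was left out, the 6 without Old replicate 1. All genes called numbered 1524, against 600 with M, 319 with the score, 2452 by DESeq2 and 393 (without Old replicate 4) to 2140 (without Old replicate 1) when each library was left out. In Old control against Old every alternative gave 0.

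With the replicate numbers as a block, 3 of the 10 genes and 461 genes in all were called in Old OSK against Old control, and in the same paired libraries with the block left out 5 and 990. In Old against Young the block gave 0 of the 10 and 0 in all, and the same libraries without it 0 and 191. The numbers were not taken as pairs in that comparison (r = -0.050, -0.019, 0.144 and -0.193) or in Old control against Old (r = 0.197, -0.189 and 0.359), since not every number deviated together. The cause of these differences was not tested beyond the smaller number of libraries.

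Some directions turned, each for a gene not called. In Old OSK against Old control they were Cdc45 with the score (-0.03) and Cdk1 with the block (0.05) and without Old control replicate 1 (0.19; -0.55 at the other end of the fits without a library). In Old against Young they were Mcm6 with the score (-0.10) and Mcm4 without Old replicate 4 (-0.02; up to 0.10). In Old control against Old, Cdk1 turned with the block (-0.03) and without Old replicate 1 (-0.08), Old control replicate 1 (-0.30) or Old control replicate 3 (-0.04; up to 0.42). Pcna turned with the score (0.03), with the 2 groups alone (0.00), with the block (0.05), in the paired libraries without it (0.06), and without Old replicate 2 (0.02), Old replicate 4 (0.07), Old control replicate 1 (0.05) or Old control replicate 3 (0.06; down to -0.12). Depth limited Cdc45 most, at 27 counts in its lowest library.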
